A study of Mus musculus with 12 samples.

Results

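The 10 immediate early genes Egr1, Egr2, Egr3, Nr4a1, Atf3, Klf6, Dusp1, Dusp2, Ier2 and Ier3 were followed in RNA-seq of mouse splenic B cells. They were taken by gene name from the transcript count table, where they held 15 of 63759 transcript rows and 10 of 32699 gene symbols, and all 10 were among the 19125 genes tested. Purified B cells labelled Chd4 knockout (KO) or wild-type (WT) were sequenced either after 48 hr ex vivo or unstimulated at 0 hr. The culture held LPS at 10 µg/ml, a bacterial lipid that activates B cells through a Toll-like receptor, and the cytokine IL-4 at 25 ng/ml. The groups were KO 48 hr (replicates 10 to 12), WT 48 hr (7 to 9), KO 0 hr (4 to 6) and WT 0 hr (1 to 3), with 3 libraries each. CHD4 is the chromatin-remodelling ATPase of the NuRD complex. The deleted part of Chd4, the Cre line, and the strain, age and sex of the mice were not given in the sources used here. No 48 hr culture without LPS and IL-4 was analysed here, so time in culture and stimulation cannot be told apart.

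Immediate early genes are transcribed within minutes of a stimulus, without new protein synthesis, because the factors that switch them on are already in the cell. MAP kinases phosphorylate ternary complex factors and CREB-family factors, which act with serum response factor (SRF) at CArG boxes and at cyclic AMP response elements (CREs). The products include transcription factors that start the next wave of genes and phosphatases that shut the kinases off, and in lymphocytes they are known as early readouts of antigen receptor, Toll-like receptor and stress signals. The samples at 48 hr were therefore taken long after the usual peak of such a response.

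Promoter sequence is shown for 2 members that were higher at 48 hr (Egr2 and Atf3) and 2 that were lower (Nr4a1 and Dusp1), since these hold the response elements of the pathway in different number. The windows run from 250 bases before to 50 bases after the start site on the gene's own strand, 5′ to 3′, and come from RefSeq on GRCm38.p6. Capitals mark matches to the CArG box, to the CRE TGACGTCA and to its core TGACG, on either strand. The regions are chr10:67537619-67537918 (plus strand) for Egr2, chr1:191183284-191183583 (minus strand) for Atf3, chr15:101266596-101266895 (plus strand) for Nr4a1 and chr17:26508423-26508722 (minus strand) for Dusp1.
Egr2: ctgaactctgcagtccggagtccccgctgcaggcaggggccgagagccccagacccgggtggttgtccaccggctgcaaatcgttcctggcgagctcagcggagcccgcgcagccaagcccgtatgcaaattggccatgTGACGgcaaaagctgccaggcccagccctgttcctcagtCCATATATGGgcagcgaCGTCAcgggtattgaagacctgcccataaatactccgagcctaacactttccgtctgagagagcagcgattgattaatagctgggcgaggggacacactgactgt
Atf3: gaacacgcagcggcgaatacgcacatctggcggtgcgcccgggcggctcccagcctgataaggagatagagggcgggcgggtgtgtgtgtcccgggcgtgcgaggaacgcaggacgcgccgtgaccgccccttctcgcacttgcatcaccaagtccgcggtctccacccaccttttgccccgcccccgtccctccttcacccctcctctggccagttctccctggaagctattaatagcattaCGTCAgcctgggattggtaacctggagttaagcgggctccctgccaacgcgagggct
Nr4a1: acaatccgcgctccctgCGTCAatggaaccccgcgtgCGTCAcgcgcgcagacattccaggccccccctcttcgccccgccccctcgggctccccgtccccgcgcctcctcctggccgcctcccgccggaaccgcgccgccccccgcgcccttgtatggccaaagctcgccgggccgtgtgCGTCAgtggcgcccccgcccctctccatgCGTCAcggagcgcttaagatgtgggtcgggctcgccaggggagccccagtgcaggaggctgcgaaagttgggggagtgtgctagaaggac
Dusp1: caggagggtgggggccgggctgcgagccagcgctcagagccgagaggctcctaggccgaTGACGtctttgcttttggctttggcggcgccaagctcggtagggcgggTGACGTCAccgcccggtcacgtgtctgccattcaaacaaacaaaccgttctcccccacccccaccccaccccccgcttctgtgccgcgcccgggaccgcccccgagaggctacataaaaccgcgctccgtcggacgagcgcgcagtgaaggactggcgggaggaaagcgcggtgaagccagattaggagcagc

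The Egr2 window holds 1 CArG box at positions -72 to -63 from the start site, with a CRE core on each side of it. Nr4a1 holds 4 CRE cores, Atf3 holds 1 just upstream of the start, and Dusp1 holds the only full CRE, which itself contains 2 overlapping cores, beside a separate core. Over the 32851 promoter windows of the table, 1.63% held a CArG box, 1.79% a CRE and 20.8% a CRE core. Windows of Egr1, Egr3 and Ier2 were not among those searched, so these counts do not cover their promoters. Of the 7 members searched (11 windows, 5 of them of Egr2), 1 had a CArG box (Egr2), 1 a CRE (Dusp1) and 5 a CRE core (Atf3, Dusp1, Dusp2, Egr2 and Nr4a1). The EGR site GCGNGGGCG, which can overlap the GC box GGGCGG, was found in Dusp2 and Nr4a1 (5.55% of all windows), and the GC box in all 7 (35.7%). The AP-1 site TGANTCA (7.81% of all windows) and the TATA box TATAAA (13.6%) were found in 0 of the 7. These are matches of letters in a window, counted on both strands.

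Libraries held 39 M to 53.2 M estimated counts (median 51.1 M), and levels are given as CPM, that is counts relative to the TMM-scaled library size. Chd4, the targeted gene, showed no difference called at 0 hr, with 100, 70.6 and 92.7 CPM in KO and 99.4, 68.1 and 92.8 CPM in WT (edgeR adjusted p = 0.99). At 48 hr it was at 51.3, 38.8 and 74.7 CPM in KO, against 102, 96.1 and 123 CPM in WT (edgeR adjusted p = 0.038), so KO below means the libraries labelled KO. Counts cover whole transcripts, and reads outside the deleted part would still be counted. Xist was at 0.856 to 1.59 CPM in the KO and 75.4 to 293 CPM in the WT libraries, so genotype and sex-linked expression cannot be told apart. Summed levels of 6 B cell markers (Cd79a and others) were 5290 to 9040 CPM in all 12 libraries, though single markers moved over time. Cd79a averaged 862 CPM in KO 48 hr and 2610 CPM in KO 0 hr, and 899 and 2530 CPM in WT. Ms4a1 went the other way, with 2600 and 1680 CPM in KO and 2460 and 1330 CPM in WT. Of the 49 markers of B and other cell types in the file, 2 were at 0 in KO 48 hr (Elane and Clec9a), 4 in WT 48 hr (Ly6g, Mpo, Elane and Gp1bb) and 0 in the 2 groups at 0 hr.

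In the comparison of 48 hr with 0 hr, most of the members were lower after stimulation and 3 were higher, and the same 3 in both genotypes. Egr2, Ier3 and Atf3 rose in KO and in WT cells. Egr3, Nr4a1, Ier2, Dusp1, Dusp2 and Klf6 fell in both, and Egr1 fell in WT cells while it did not pass the test in KO cells. The edgeR quasi-likelihood test at an adjusted p below 0.05 thus called 3 higher and 6 lower in KO, and 3 higher and 7 lower in WT. Over all genes tested, 33% were called higher and 37.7% lower in KO, and 33% higher and 40.9% lower in WT, so the split of the members sits beside a transcriptome in which most genes moved. The median log2 fold change of the 10 members was -1.21 in KO and -1.37 in WT, beside -0.301 and -0.391 over all genes. Of all genes called, 46.7% were higher in KO and 44.6% in WT; with upper-quartile scaling these shares were 28.8% and 27.6%, and with total counts 24.4% and 23.2%.

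**Figure D1:**
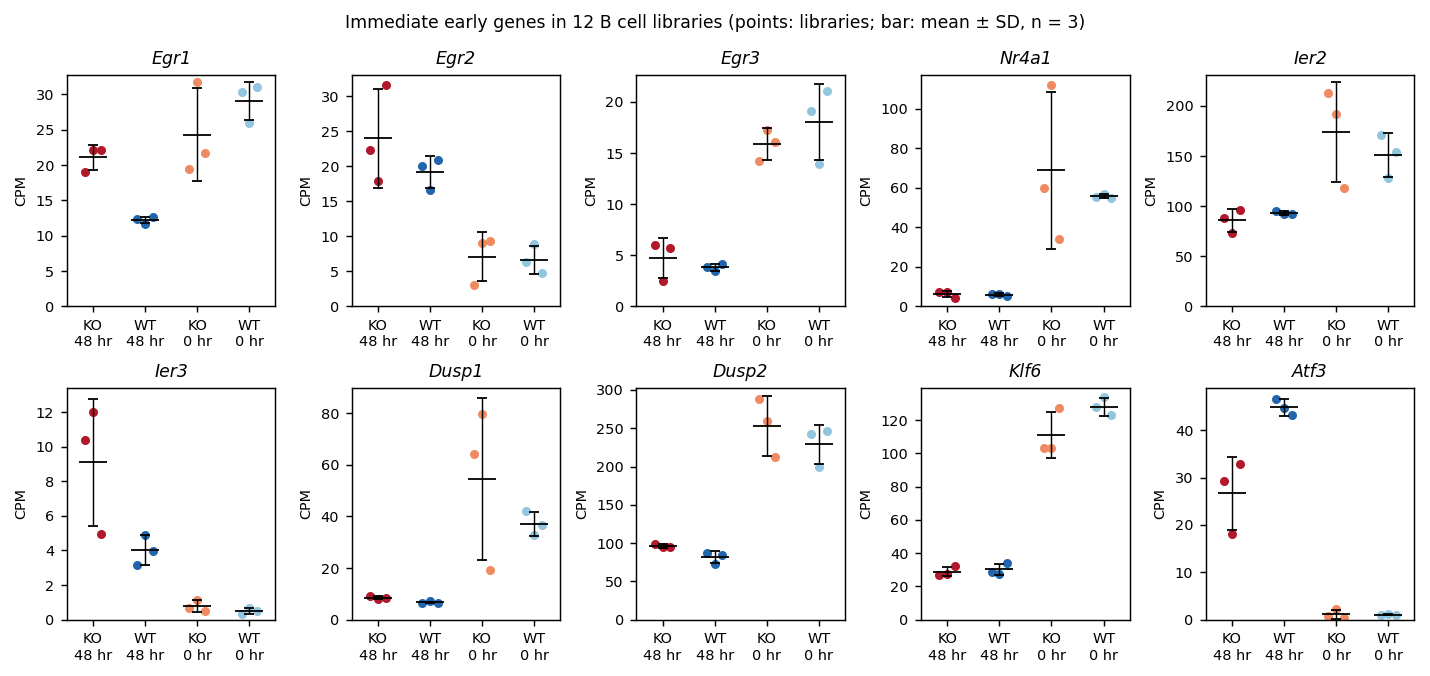
CPM (vertical axes, each from 0) of the 10 members in every library, by group (horizontal axes). Points are libraries, and bars give the mean ± SD of 3. Egr2, Ier3 and Atf3 stand higher at 48 hr than at 0 hr in both genotypes, and Egr1 is the member whose KO libraries at 48 hr (19 to 22.1 CPM) lie well above the WT libraries (11.7 to 12.6 CPM).

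The EGR transcription factors share a zinc-finger DNA-binding domain and are bound and held in check by the corepressors NAB1 and NAB2. Egr1 is the member most used as a marker of MAP kinase signalling (mm10, chromosome 18, 34859823 to 34864984, plus strand). It was at 19, 22.1 and 22.1 CPM in KO 48 hr and 12.3, 11.7 and 12.6 CPM in WT 48 hr. At 0 hr it was at 19.5, 31.8 and 21.7 CPM in KO and 30.3, 26 and 31 CPM in WT. The KO libraries at 48 hr lay within the range of the KO libraries at 0 hr apart from 1 just below it, whereas every WT library at 48 hr lay below every WT library at 0 hr. The log2 fold change of Egr1 over time was -0.21 in KO (SE 0.169, 95% interval -0.57 to 0.15, edgeR adjusted p = 0.28) and -1.25 in WT (SE 0.172, adjusted p = 1.9e-05). The KO value depended on the scaling and on 1 library. It was -0.84 with upper-quartile scaling (adjusted p = 0.00055) and -1.03 with total counts (adjusted p = 0.00015), and 0.034 without KO 0 hr replicate 5 (adjusted p = 0.84, the highest of the alternatives).

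Egr2, an EGR factor that restrains lymphocyte activation in mice, lies on chromosome 10 (67535475 to 67542188, plus strand). It was at 22.4, 17.9 and 31.7 CPM in KO 48 hr and 3.02, 9.02 and 9.29 CPM in KO 0 hr. Levels in WT were 20.1, 16.6 and 20.9 CPM after 48 hr and 6.28, 8.85 and 4.78 CPM in the 0 hr libraries. Every library at 48 hr lay above every library at 0 hr. Its log2 fold change was 1.75 in KO (SE 0.359, edgeR adjusted p = 0.00066) and 1.53 in WT (SE 0.359, adjusted p = 0.0017). With total counts the WT value was 0.66 and no longer called (adjusted p = 0.096). Most Egr2 counts belonged to 1 of its 2 transcript rows, 88.8% in KO 48 hr, 90.3% in WT 48 hr, 98.8% in KO 0 hr and 100% in WT 0 hr.

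Egr3, a close relative of Egr2 and also a brake on lymphocyte activation, lies on chromosome 14 (70077203 to 70082614, plus strand). It was at 6.01, 2.51 and 5.68 CPM in KO 48 hr and 14.2, 17.3 and 16.1 CPM in KO 0 hr. In WT, the 48 hr libraries had 3.84, 3.43 and 4.17 CPM and those of 0 hr had 19.1, 13.9 and 21.1 CPM. The times did not overlap in either genotype, and the direction was opposite to that of Egr2. Egr3 fell by 1.75 on the log2 scale in KO (SE 0.276, edgeR adjusted p = 7.2e-05) and by 2.24 in WT (SE 0.281, adjusted p = 7.7e-06). Its counts were shared among 3 transcript rows, with 59.9%, 72.4%, 85.2% and 72.1% on the leading row in KO 48 hr, WT 48 hr, KO 0 hr and WT 0 hr. KO 48 hr replicate 11 had 0 estimated counts on that row and 95 on the second, so the split between transcripts is uncertain while the gene sum is less so.

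Nr4a1, an orphan nuclear receptor widely used as a reporter of antigen receptor signalling, lies on chromosome 15 (101254269 to 101274795, plus strand). It was at 7.12, 7.46 and 4.41 CPM in KO 48 hr and 59.7, 112 and 34.2 CPM in KO 0 hr. The WT libraries had 6.44, 6.51 and 5.06 CPM at 48 hr, against 55.5, 56.7 and 55.1 CPM at 0 hr. The WT libraries at 0 hr were within 2 CPM of each other, whereas the KO libraries at 0 hr spanned a range of over 3-fold on either side of them. Nr4a1 had the largest fall of the 10 members in both genotypes, by 3.44 on the log2 scale in KO (10.9-fold, SE 0.349, edgeR adjusted p = 9.2e-07), with a log2 fold change of -3.21 in WT (9.29-fold, SE 0.347, adjusted p = 1.7e-06).

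Atf3, a leucine-zipper factor of the ATF/CREB family that limits Toll-like receptor responses in mouse macrophages, lies on chromosome 1 (191170296 to 191218039, minus strand). It was at 29.2, 18.1 and 32.9 CPM in KO 48 hr and 0.816, 2.16 and 0.382 CPM in KO 0 hr. Levels in WT were 46.6, 44.7 and 43.1 CPM after 48 hr and 0.983, 1.19 and 0.966 CPM in the 0 hr libraries. Every library at 48 hr was far above every library at 0 hr, where Atf3 had only 26 to 140 estimated counts. Its rise was the largest of the 10 members, 4.57 on the log2 scale in KO (23.8-fold, SE 0.442, edgeR adjusted p = 5.5e-07) and 5.42 in WT (42.8-fold, SE 0.459, adjusted p = 1.3e-07). Without KO 0 hr replicate 5 the KO value was 5.51, above that of WT. A noncoding RNA gene, Gm24748, is annotated within its span on the other strand, and the kit does not mark strand.

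Klf6, a Krüppel-like zinc-finger factor, lies on chromosome 13 (5861482 to 5870394, plus strand). It was at 26.9, 27.7 and 32.1 CPM in KO 48 hr and 103, 103 and 127 CPM in KO 0 hr. In WT, the 48 hr libraries had 28.8, 27.6 and 34.1 CPM and those of 0 hr had 128, 134 and 123 CPM. The libraries of a group lay close together, and the times were far apart. Klf6 fell by 1.94 on the log2 scale in KO (SE 0.124, edgeR adjusted p = 7.5e-09) and by 2.09 in WT (SE 0.124, adjusted p = 3.6e-09), the lowest p-values among the members.

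The 2 phosphatases of the set turn off the kinases that induce them. Dusp1, which acts on stress-activated MAP kinases, was at 9.31, 7.86 and 8.58 CPM in KO 48 hr and 64, 79.8 and 19.3 CPM in KO 0 hr. The WT libraries had 6.54, 7.07 and 6.62 CPM at 48 hr, against 42.1, 32.9 and 36.6 CPM at 0 hr. The KO libraries at 0 hr were spread widely, with replicate 6 below and replicates 4 and 5 above all WT libraries of that time. Dusp1 fell by 2.66 on the log2 scale in KO (SE 0.366, edgeR adjusted p = 1.9e-05) and by 2.46 in WT (SE 0.366, adjusted p = 3.9e-05). Its annotated span on chromosome 17 (26505590 to 26562128, minus strand) overlaps Ergic1 on the other strand and 3 annotated pseudogenes or noncoding genes, and unstranded reads of shared stretches cannot be told apart.

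Dusp2, a nuclear phosphatase of lymphocytes that acts on ERK-type MAP kinases, lies on chromosome 2 (127336159 to 127338376, plus strand). It was at 99.4, 94.3 and 94.5 CPM in KO 48 hr and 288, 260 and 212 CPM in KO 0 hr. Levels in WT were 87.4, 72.9 and 84.8 CPM after 48 hr and 242, 200 and 246 CPM in the 0 hr libraries. The times did not overlap, and the fall was alike in size between genotypes. Dusp2 fell by 1.40 on the log2 scale in KO (SE 0.129, edgeR adjusted p = 3.4e-07) and by 1.49 in WT (SE 0.130, adjusted p = 1.8e-07).

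Ier2, a nuclear protein induced by growth factors, lies on chromosome 8 (84661331 to 84662852, minus strand). It was at 87.8, 73.6 and 95.9 CPM in KO 48 hr and 213, 192 and 118 CPM in KO 0 hr. In WT, the 48 hr libraries had 95.2, 92.6 and 91.7 CPM and those of 0 hr had 171, 128 and 154 CPM. The WT libraries at 48 hr lay within 4 CPM of each other and below all at 0 hr. Ier2 fell by 1.02 on the log2 scale in KO (SE 0.185, edgeR adjusted p = 0.00024) and by 0.70 in WT (SE 0.184, adjusted p = 0.004), the smallest of the called falls.

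Ier3, a stress-inducible regulator of cell survival, lies on chromosome 17 (35821684 to 35822923, plus strand). It was at 10.4, 12 and 4.98 CPM in KO 48 hr and 0.683, 1.16 and 0.529 CPM in KO 0 hr. The WT libraries had 3.14, 4.89 and 3.99 CPM at 48 hr, against 0.333, 0.652 and 0.492 CPM at 0 hr. Every library at 48 hr lay above every library at 0 hr, where a library held only 19 to 75 estimated counts. Ier3 rose by 3.52 on the log2 scale in KO (11.5-fold, SE 0.404, edgeR adjusted p = 3.3e-06) and by 3.02 in WT (8.13-fold, SE 0.410, adjusted p = 1.6e-05).

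**Figure D2:**
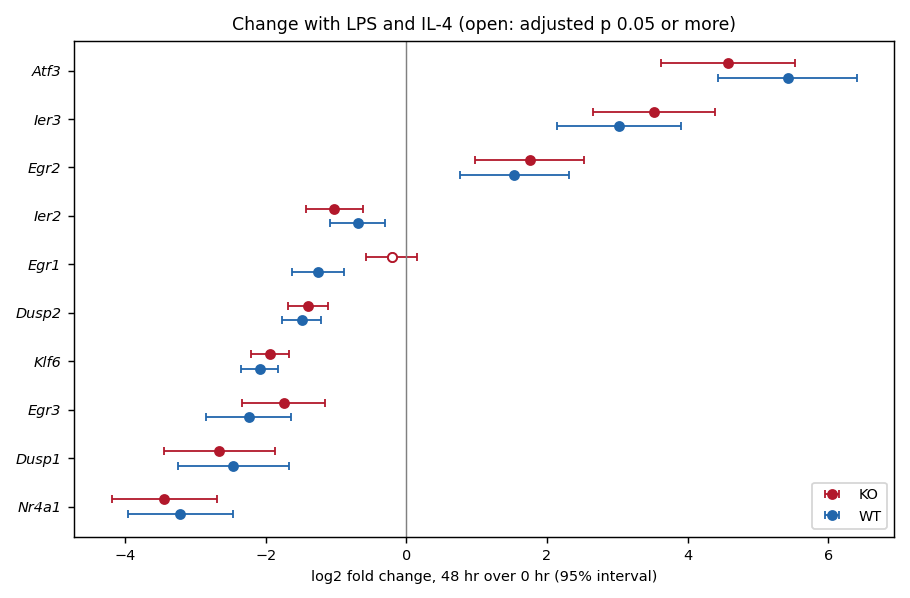
Log2 fold change of each member, 48 hr over 0 hr (horizontal axis), with 95% intervals, in KO (red) and WT (blue) cells; open points did not pass the test. Atf3, Ier3 and Egr2 lie right of 0, the other members left of it, and the KO value of Egr1 (-0.21) is the open point.

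Under the scalings run (relative log expression, upper quartile, total counts, and TMM without immunoglobulin, mitochondrial and ribosomal protein genes), no member changed direction over time. Upper-quartile scaling moved the median of all genes by -0.631 in KO and -0.673 in WT, and total counts moved it by -0.813 and -0.886. Leaving out any 1 library changed no call of a member over time. Markers of cells other than B cells moved in the same comparison: all 7 monocyte and macrophage markers fell in both genotypes, with summed levels of 23.1 to 42.7 CPM in KO 48 hr, 17.9 to 20.9 CPM in WT 48 hr, 142 to 371 CPM in KO 0 hr and 120 to 241 CPM in WT 0 hr. All 5 tested neutrophil, 3 erythroid and 5 platelet markers fell as well, as did 5 of 7 T cell markers in KO and 6 of 7 in WT. Of 5 NK cell markers 3 fell in KO and 4 in WT, where 1 rose, and of 5 dendritic cell markers 3 fell and 1 rose in both. Of 5 stromal and endothelial markers 3 fell in both. The 6 B cell markers moved as well, and 3 of them fell and 1 rose in both genotypes. Over all genes 37.7% fell in KO and 40.9% in WT. The part of cells other than B cells in the falls of the members was not tested. In bulk RNA, fewer cells of a type and less RNA per cell cannot be told apart.

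Heat-shock genes, which are induced in stressed cells, moved over time too. Of 8 such genes 5 were called higher and 3 lower in both genotypes. Over all genes 33% were higher in each genotype, with 37.7% lower in KO and 40.9% in WT. The inducible chaperone gene Hspa1a was at 3.37, 2.37 and 1.74 CPM in KO 48 hr and 715, 613 and 445 CPM in KO 0 hr. Levels in WT were 1.13, 1.76 and 0.818 CPM after 48 hr and 399, 291 and 395 CPM in the 0 hr libraries. Every library at 0 hr was thus far above those at 48 hr, and Hspa1a fell by 7.88 on the log2 scale in KO (edgeR adjusted p = 1.2e-10), with -8.20 in WT (adjusted p = 1.1e-10). Hspa1b (-8.07 in KO and -8.29 in WT) and the co-chaperone gene Dnajb1 (-1.33 and -0.94) fell with it. The other 5 of the 8 genes rose, among them Hspe1 (3.14 in KO and 3.60 in WT), Hsp90aa1 (2.17 and 2.54), Hspa8 (1.56 and 1.93) and Dnaja1 (0.95 and 1.38, with the KO call lost with total counts at 0.14, adjusted p = 0.27). The part of such a stress state at 0 hr in the levels of the members was not tested.

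Per length, that is as CPM per kb of the longest RefSeq-matched transcript, Dusp2 and Ier2 led in every group. In KO 48 hr they averaged 59.4 ± 1.8 and 56.4 ± 7.42 CPM per kb (SD, n = 3) and overlapped, followed by Atf3 at 13.5 ± 3.87. Egr2, Ier3, Egr1 and Klf6 came next at 6.84 to 8.09 CPM per kb, and these neighbours, like Atf3 and Egr2, overlapped in their libraries. Dusp1 (4.31), Nr4a1 (2.56) and Egr3 (1.2) closed the order, with Dusp1 overlapping Ier3 and the last 2 overlapping no other member. In WT 48 hr Ier2 (61.2 ± 1.22) stood above Dusp2 (50.5 ± 4.8) and Atf3 (22.6 ± 0.882) without overlap, and Egr3 was again last at 0.967 ± 0.0942 CPM per kb. Between them Klf6 (7.15) overlapped Egr2 (6.48), and Egr1 (4.02), Ier3 (3.55) and Dusp1 (3.39 CPM per kb) overlapped in turn.

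At 0 hr the order differed at the lower end. In KO 0 hr Dusp2 (156 ± 24) and Ier2 (114 ± 32.7 CPM per kb) overlapped, and Nr4a1, Dusp1 and Klf6 overlapped at 26.3 to 27.8 CPM per kb. Egr1 (8), Egr3 (4.04) and Egr2 (2.4) followed apart from each other, with Egr1 overlapping the lowest library of Dusp1. Ier3 (0.698), which overlapped Egr2, and Atf3 (0.565), which overlapped both, were last. In WT 0 hr Dusp2 (142), Ier2 (99.2), Klf6 (30.3), Nr4a1 (22.5), Dusp1 (18.7), Egr1 (9.58), Egr3 (4.57) and Egr2 (2.24 CPM per kb) stood apart from each other. Atf3 (0.524) and Ier3 (0.435 CPM per kb) again came last and overlapped. Atf3 therefore held place 3 of 10 at 48 hr and one of the last 2 places at 0 hr, in both genotypes.

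**Figure D3:**
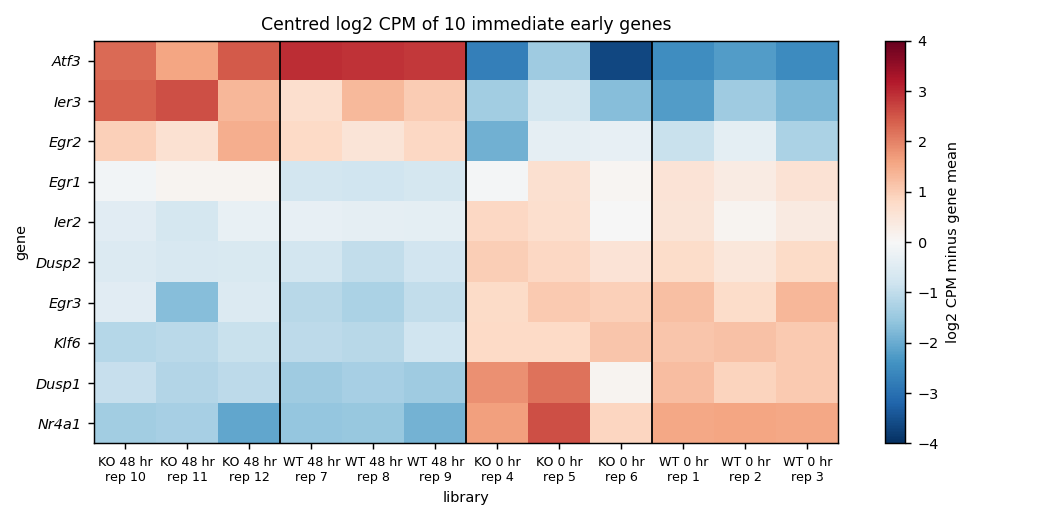
Log2 CPM of each member in each library minus the gene's mean over the 12 libraries (colour, -4 to 4). Rows are genes and columns are libraries in the order KO 48 hr, WT 48 hr, KO 0 hr, WT 0 hr, with black lines between groups. Atf3, Ier3 and Egr2 are red at 48 hr, Nr4a1 is blue in every library there, and the KO 0 hr libraries differ among themselves more than the WT 0 hr libraries do.

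The members did not share 1 profile. Likeness was taken as the root mean square difference of centred log2 CPM over the 12 libraries. Egr3 and Klf6 were each other's nearest member (0.34), as were Ier2 and Dusp2 (0.35), and Nr4a1 and Dusp1 (0.51). The nearest member of Egr1 was Ier2 (0.44). Atf3 was farthest from Nr4a1 (4.15), and its nearest member was Ier3 at 1.31. The median profile of the members was nearest to Dusp2 (0.16) and farthest from Atf3 (3.15). Among 10081 genes at a mean of 5 CPM or more, the non-members nearest to that median were Dlgap4 (0.12), 4933409K07Rik (0.15), Rnf123 (0.16), Cep350 (0.17) and Vamp2 (0.18). This ranks genes by likeness over 12 libraries that mostly differ by time.

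Between genotypes at 48 hr, Egr1 was the member that passed the test. It averaged 21.1 ± 1.77 CPM in KO and 12.2 ± 0.442 CPM in WT (SD, n = 3 each), a log2 fold change of 0.79 (1.73-fold, SE 0.172, 95% interval 0.42 to 1.16, edgeR adjusted p = 0.032). Of the 10 members, 1 was called higher and 0 lower beside 1.47% and 0.544% of all genes. At an unadjusted p below 0.05 the members were 2 of 10, near the 14.4% of all genes. Of all genes called, 73.1% were higher, and 54.9% with DESeq2 and 57% with limma-voom. DESeq2 called 2 higher, Egr1 and Ier3, and limma-voom called 0. Over all genes DESeq2 called 1069 and limma-voom 193, against 386 with edgeR. The size of the Egr1 difference stayed between 0.70 and 0.86 on the log2 scale under all alternatives, whereas its call was close to the threshold. Adjusted p-values ran from 0.0026 to 0.19. The call was lost with limma-voom (0.092). It was also lost on leaving out any one of these libraries: replicates 1 (0.054) and 3 (0.052) of WT 0 hr, replicates 7 (0.17), 8 (0.17) and 9 (0.14) of WT 48 hr, and replicates 10 (0.068) and 11 (0.19) of KO 48 hr.

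Ier3 averaged 9.11 ± 3.67 CPM in KO 48 hr and 4.01 ± 0.873 CPM in WT 48 hr, the largest fold between genotypes among the members at that time (log2 fold change 1.19, SE 0.367, 95% interval 0.40 to 1.98, edgeR adjusted p = 0.13). Replicates 10 and 11 of KO (10.4 and 12 CPM) were over 2 times the highest WT library, and replicate 12 (4.98 CPM) was level with it. Ier3 was called by DESeq2 (1.13, adjusted p = 0.049) and without KO 48 hr replicate 12 (1.48, adjusted p = 0.023), and its adjusted p ran from 0.012 to 0.48 over the alternatives. Over all genes DESeq2 called 1069 at 48 hr and the fit without replicate 12 called 1080, against 386 in the fit reported. Replicate 12 also had the highest Chd4 level of KO 48 hr (74.7 CPM) and the lowest level of Lck, a kinase gene of the T cell marker list (110, 108 and 41.9 CPM in KO replicates 10, 11 and 12 and 35.2 to 39.4 CPM in WT 48 hr). Lck made up nearly all of that list's sum at 48 hr, where each of its other 6 genes was at 1.24 CPM or less in every library. The part of either in the Ier3 level was not tested.

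Atf3 averaged 26.7 ± 7.68 CPM in KO 48 hr and 44.8 ± 1.75 CPM in WT 48 hr. All 3 KO libraries (18.1 to 32.9 CPM) lay below all 3 WT libraries (43.1 to 46.6 CPM), yet the KO libraries were spread and the test did not call it (log2 fold change -0.74, SE 0.368, 95% interval -1.54 to 0.05, edgeR adjusted p = 0.38; 0.072 to 0.69 under the alternatives). Dusp1 (8.58 ± 0.725 CPM in KO and 6.75 ± 0.288 CPM in WT) and Dusp2 (96.1 ± 2.91 and 81.7 ± 7.76 CPM) lay higher in every KO library, with log2 fold changes of 0.35 and 0.23 (adjusted p = 0.74 and 0.44). In all, 4 members had every KO library above every WT library at 48 hr (Egr1, Ier3, Dusp1 and Dusp2) and 1 had every one below (Atf3), beside 10.7% and 9.53% of all genes. The other 5 overlapped, with log2 fold changes of 0.32 for Egr2, 0.31 for Egr3, 0.08 for Nr4a1, -0.06 for Klf6 and -0.12 for Ier2 and edgeR adjusted p of 0.69 or more.

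**Figure D4:**
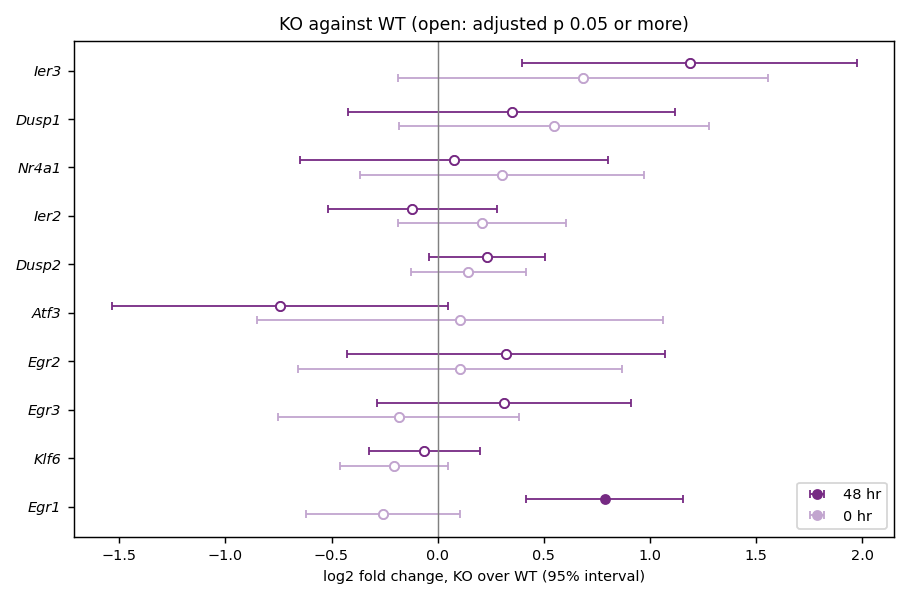
Log2 fold change of each member, KO over WT (horizontal axis), with 95% intervals, at 48 hr (dark) and 0 hr (light); open points did not pass the test. Egr1 at 48 hr (0.79) is the filled point, and the intervals of Ier3 and Egr1 at 48 hr lie clear of 0.

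At 0 hr 0 of the 10 members were called between KO and WT with edgeR, DESeq2 or limma-voom, and 0 had an unadjusted edgeR p below 0.05 (10.7% of all genes), beside 0.68% of all genes called higher and 0.429% lower. Of all genes called, 61.3% were higher, and 50.7% with total counts. The groups overlapped in all 10 members, while 7.02% of all genes had every KO library above and 7.92% every one below. The largest log2 fold changes were 0.68 for Ier3 (95% interval -0.19 to 1.55), 0.55 for Dusp1 (-0.18 to 1.28) and 0.30 for Nr4a1 (-0.37 to 0.97). Intervals of this width leave differences of 1.5-fold or more within reach for these 3 genes. The same holds for Egr1, Egr2, Egr3, Ier2 and Atf3.

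The KO libraries at 0 hr varied more than the WT libraries in 9 of the 10 members. The coefficient of variation was 57.9% in KO and 1.56% in WT for Nr4a1, 57.8% and 12.4% for Dusp1, 82.7% and 11.7% for Atf3, and 28.6% and 14.3% for Ier2. Egr3 went the other way (9.71% in KO and 20.6% in WT). Replicate 5 was the highest of the 3 KO libraries in 6 members (Egr1, Egr3, Nr4a1, Ier3, Dusp1 and Atf3), and replicate 6 was the lowest in 6. Without replicate 6, Dusp1 was called higher in KO (log2 fold change 0.95, edgeR adjusted p = 0.0038), with a range of 0.0029 to 0.94 over the alternatives. Over all genes the fit without replicate 6 called 426 at 0 hr, against 212 in the fit reported. Without replicate 5, the log2 fold change of Nr4a1 was -0.25 and that of Atf3 was -0.83, and neither was called.

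Markers of other cells differed among the same libraries. Summed monocyte and macrophage markers were 191, 371 and 142 CPM in KO replicates 4, 5 and 6 and 120, 241 and 129 CPM in WT replicates 1, 2 and 3. The 6 neutrophil markers summed to 12.1, 58.4 and 2.57 CPM in KO and 19.2, 30.8 and 13.4 CPM in WT. The 7 T cell markers summed to 116, 118 and 57.9 CPM in KO and 59.5 to 68.3 CPM in WT. Most of that sum was Lck (90.8, 85.6 and 43.5 CPM in KO), while Cd8a was lowest in KO replicate 4 (4.18, 7.87 and 5.26 CPM). In these sums KO replicate 5 was thus the highest and replicate 6 the lowest of the KO libraries. The NK cell, dendritic cell and platelet sums had the same highest and lowest KO library. Replicate 6 was instead the highest in stromal and endothelial markers (134, 151 and 190 CPM in KO replicates 4, 5 and 6). It was also the highest in B cell markers (6980, 6600 and 9040 CPM). Erythroid markers were highest in replicate 4, with 1580, 122 and 385 CPM in KO replicates 4, 5 and 6 and 274 to 393 CPM in WT. The part of these cells in the levels of the members was not tested. The 8 heat-shock genes summed to 4630 to 5350 CPM in KO 0 hr and 3900 to 4160 CPM in WT 0 hr. Of these, edgeR called 0 between genotypes at 0 hr, and 3 had an unadjusted p below 0.05, beside 10.7% of all genes.

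The interaction asks whether the change over time differed between KO and WT, which is the same as whether the genotype difference at 48 hr differed from that at 0 hr. With edgeR 0 of the 10 members passed, 1 of them at an unadjusted p below 0.05 (8.61% of all genes), while DESeq2 called 1 and limma-voom 0. The edgeR count stands beside 0.068% of all genes called higher and 0.0471% lower. Egr1 was the one: its difference was 1.04 on the log2 scale (SE 0.240, 95% interval 0.53 to 1.56, unadjusted p = 0.000718, edgeR adjusted p = 0.15). DESeq2 called it (0.99, adjusted p = 0.012), as did the fit without KO 0 hr replicate 5 (1.28, adjusted p = 0.032), and its adjusted p ran from 0.012 to 0.44. Over all genes DESeq2 called 220 in the interaction and the fit without replicate 5 called 26, against 22 in the fit reported. For Atf3 the difference was -0.85 (95% interval -2.09 to 0.39) and for Ier3 0.50 (-0.68 to 1.68). The intervals of the other 7 members all included 0, with edgeR adjusted p of 0.78 or more.

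A list of 40 other immediate early genes, of which 39 were tested, was set beside the members. Over time 13 rose and 17 fell in KO, beside 33% and 37.7% of all genes. In WT 12 rose and 19 fell, beside 33% and 40.9%. The median log2 fold changes were -0.42 in KO and -0.89 in WT. Those that rose included the activation antigen gene Cd69 (2.77 in KO and 2.06 in WT), the growth regulator Myc (1.73 and 1.81), Ifrd1 (1.54 and 1.42), Tnfaip3, an inhibitor of NF-kB signalling (2.11 in KO), and the phosphatase gene Dusp10 (2.29 in WT). Those that fell included the antiproliferative gene Btg2 (-2.43 in KO and -2.30 in WT), the kinase gene Sgk1 (-3.02 and -4.19), Ier5 (-1.34 and -1.54), the mRNA-decay factor Zfp36 (-2.31 in WT) and the AP-1 gene Fosb (-6.06 in KO). Fos, named after its values were seen as the AP-1 partner best known from this response, fell by 4.08 in KO and 4.36 in WT (edgeR adjusted p = 3.7e-06 and 2.1e-06).

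**Figure D5:**
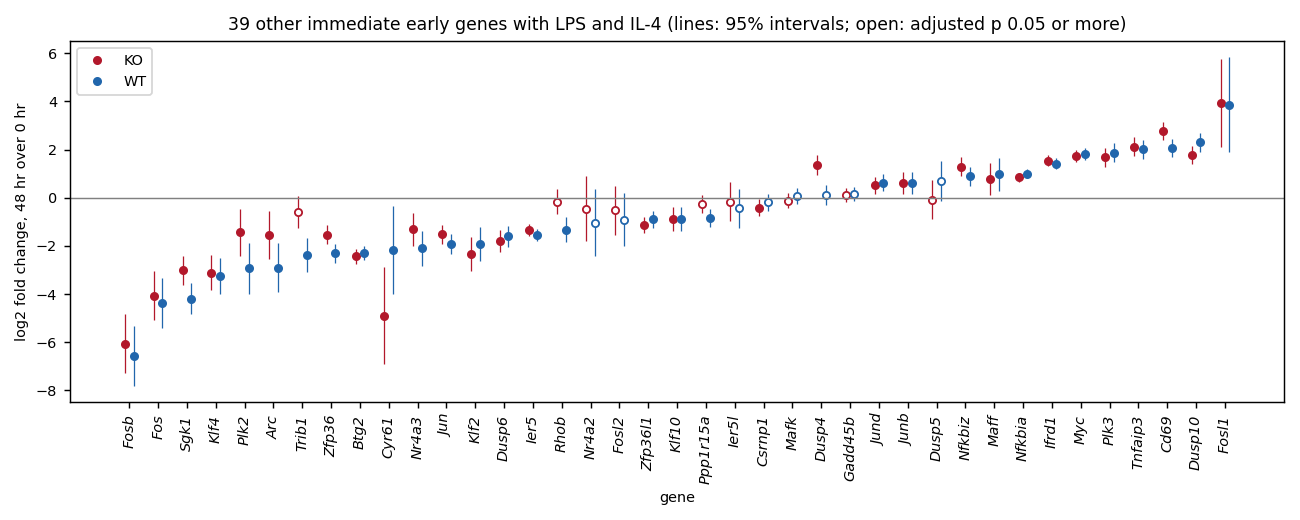
Log2 fold change, 48 hr over 0 hr (vertical axis), of 39 other immediate early genes (horizontal axis, ordered by the WT value) in KO (red) and WT (blue), with 95% intervals; open points did not pass the test. More genes lie below 0 than above it, from Fosb (-6.06 in KO and -6.57 in WT) at the left to Fosl1 at the right.

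Between genotypes at 48 hr, 2 of the 39 rose in KO and 0 fell, beside 1.47% of all genes called higher and 0.544% lower. Sgk1 was at 3.69, 4.09 and 2.83 CPM in KO and 1.42, 1.92 and 0.716 CPM in WT (1.39 on the log2 scale, SE 0.285, edgeR adjusted p = 0.024). Trib1, a pseudokinase gene, was at 3.35, 3.38 and 4.95 CPM in KO and 1.54, 0.891 and 1.56 CPM in WT (1.54, SE 0.327, adjusted p = 0.029). The groups did not overlap in either gene. Leaving out one library ended the call of Sgk1 in 4 fits, those lacking replicate 7 (0.12) or 9 (0.094) of WT 48 hr or replicate 10 (0.086) or 11 (0.15) of KO 48 hr. It ended that of Trib1 in 5, those lacking replicate 7 (0.1), 8 (0.15) or 9 (0.094) of WT 48 hr or replicate 10 (0.066) or 11 (0.087) of KO 48 hr. Both calls were lost with limma-voom (0.092 each) and kept with DESeq2, and Sgk1 was lost when only the 48 hr libraries were fitted (0.078).

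At 0 hr, beside 0.68% of all genes called higher in KO and 0.429% lower, 0 of the 39 rose and 1 fell, the ERK phosphatase gene Dusp4. It was at 5.45, 8.13 and 6.57 CPM in KO and 10.5, 12.8 and 15.2 CPM in WT (-0.93 on the log2 scale, SE 0.195, edgeR adjusted p = 0.035). The groups did not overlap, and the direction was opposite to the uncalled values of Dusp1 and Dusp2. The call was lost when only the 0 hr libraries were fitted (0.16). It was also lost on leaving out replicate 2 (0.091) or 3 (0.19) of WT 0 hr, 4 (0.12) or 6 (0.059) of KO 0 hr, 7 (0.074), 8 (0.062) or 9 (0.074) of WT 48 hr, or 11 (0.064) of KO 48 hr. In the interaction edgeR called 0 of the 39 and limma-voom 0, against 2 with DESeq2, which called 220 of all genes against 22 with edgeR. Unadjusted edgeR p-values were below 0.05 in 8, beside 8.61% of all genes.

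The genes upstream of the members, 20 kinases and transcription factors, moved in both directions over time. In KO 11 rose and 6 fell, beside 33% and 37.7% of all genes, and in WT 12 rose and 5 fell, beside 33% and 40.9%. Srf, the factor of the CArG box, averaged 48 ± 5.36 CPM in KO 48 hr and 37.4 ± 5.46 CPM in KO 0 hr, and 54.1 ± 9.62 CPM in WT 48 hr and 36.4 ± 2.02 CPM in WT 0 hr. Its log2 fold change was 0.36 in KO (edgeR adjusted p = 0.045) and 0.57 in WT (adjusted p = 0.0037), and both turned negative with upper-quartile scaling (-0.27 and -0.11) and with total counts (-0.45 and -0.32), where Srf was called lower in KO (0.018). The KO call of Srf was also lost under both other low-count filters (0.058 and 0.27), with only the KO libraries fitted (0.087) and in 9 of 12 fits that left out 1 library (up to 0.16), all but those lacking KO 0 hr replicate 6, WT 48 hr replicate 8 or KO 48 hr replicate 11. Of its ternary complex partners, Elk4 (-1.38 in KO and -1.33 in WT) and Elk3 (-0.51 and -1.12) fell. Elk1, named after its values were seen, stood higher at 48 hr than at 0 hr. It was at 16 to 16.7 against 8.26 to 12 CPM in KO and 14.5 to 19.5 against 9.82 to 12 CPM in WT. The cofactor Mkl1 (-1.20 in KO and -1.10 in WT) and the kinase gene Rps6ka5 (-2.12 and -2.35) fell, and the CREB relative Atf1 (1.43 and 1.29) rose.

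The MAP kinase kinase genes Map2k1 (0.60 in KO and 0.61 in WT) and Map2k2 (0.64 and 0.73) and the kinase gene Rps6ka1 (1.12 in WT) were called higher, but with total counts Map2k1 was called lower (-0.21 in KO, adjusted p = 0.028, and -0.28 in WT, 0.007), Map2k2 was negative and Rps6ka1 in WT at 0.24, neither of them called. With upper-quartile scaling neither Map2k1 nor Map2k2 was called. Between genotypes 0 of the 20 were called at 0 hr, beside 0.68% of all genes higher and 0.429% lower. At 48 hr, beside 1.47% higher and 0.544% lower, 1 was called, Elk3. It was at 24.9, 24 and 23.9 CPM in KO and 15, 18 and 14.9 CPM in WT, with no overlap (0.60 on the log2 scale, SE 0.124, edgeR adjusted p = 0.025). It did not hold with limma-voom (0.06), nor on leaving out replicate 7 (0.16) or 9 (0.14) of WT 48 hr or 10 (0.1) or 11 (0.12) of KO 48 hr.

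Of 10 feedback and mRNA-decay genes, 3 rose and 3 fell in KO, beside 33% and 37.7% of all genes. In WT 4 rose and 3 fell, beside 33% and 40.9%. The EGR corepressor Nab1 was at 189, 163 and 280 CPM in KO 48 hr and 96, 107 and 102 CPM in KO 0 hr, and at 310, 241 and 317 CPM in WT 48 hr and 101, 109 and 98.7 CPM in WT 0 hr. Nab2 was at 11.2, 9.97 and 15.1 CPM in KO 48 hr and 32.9, 39.9 and 40.1 CPM in KO 0 hr, and at 14.2, 13 and 17.7 CPM in WT 48 hr and 33.4, 34.6 and 41.8 CPM in WT 0 hr. The pair moved in opposite directions, as Egr2 and Egr3 did: Nab1 rose by 1.05 in KO and 1.49 in WT (edgeR adjusted p = 9.7e-05 and 3.5e-06), and Nab2 fell by 1.64 and 1.29 (1.9e-06 and 1.8e-05). Between genotypes at 48 hr Nab1 had a log2 fold change of -0.46 (adjusted p = 0.21, or -0.72 and 0.0095 without KO 48 hr replicate 12) and Nab2 of -0.31 (adjusted p = 0.47). Without that library 1080 of all genes were called at 48 hr, against 386 in the fit reported. At 0 hr the values were -0.015 for Nab1, 0.042 for Nab2 and 0.040 for Srf (adjusted p of 0.97 or more). The decay factor Zfp36l2 fell (-2.94 in KO and -2.45 in WT), as did Rc3h1 (-0.59 and -0.44), whose WT call was lost with relative log expression scaling (0.051) and on leaving out replicate 1 (0.067) or 3 (0.072) of WT 0 hr or 7 (0.097) or 8 (0.093) of WT 48 hr. In the other direction, Spred1 (1.23 and 1.43), Zc3h12a (0.92 and 0.73) and Spred2 (0.91 in WT) were called higher. With total counts the calls of higher levels were lost for Nab1 (0.24, adjusted p = 0.22) and Spred1 (0.41, 0.074) in KO, for Spred2 in WT (0.031, 0.92) and for Zc3h12a in both (0.11 in KO and -0.16 in WT). With upper-quartile scaling Spred2 in WT (0.24, 0.46) and Zc3h12a in both (0.058 in KO and 0.73 in WT as adjusted p) were lost.

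Relatives of the members were read beside them. Over all genes, 33% were called higher and 37.7% lower over time in KO, and 33% and 40.9% in WT. Of the 10 MAP kinase phosphatases, which include Dusp1 and Dusp2, 2 rose and 4 fell in KO and 1 rose and 5 fell in WT. Dusp6 (-1.80 in KO and -1.60 in WT) and Dusp16 (-1.77 and -1.80) fell with the 2 members, and Dusp10 (1.78 and 2.29) rose. Dusp4 rose in KO (1.35, edgeR adjusted p = 3.4e-05) and was at 0.10 in WT (adjusted p = 0.66), an interaction of 1.26 that was not called (adjusted p = 0.13). Of the 15 Krüppel-like factors, which include Klf6, 12 fell and 0 rose in KO, and 10 fell and 1 rose in WT. Some genes of both families, among them Dusp4, Dusp10, Klf2 and Klf4, were also counted among the other immediate early genes. Klf13 (-1.96 in KO and -1.84 in WT), Klf3 (-2.54 and -2.33) and Klf4 (-3.12 and -3.24) fell with Klf6.

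Klf2, a factor of resting lymphocytes, averaged 81.4 ± 49.3 CPM in KO 48 hr and 416 ± 106 CPM in KO 0 hr, and 121 ± 18.5 CPM in WT 48 hr and 456 ± 66.3 CPM in WT 0 hr (log2 fold change -2.35 in KO and -1.91 in WT, edgeR adjusted p = 2.4e-05 and 0.00013). At 48 hr KO against WT was -0.57 (adjusted p = 0.45), and -1.18 without KO 48 hr replicate 12 (adjusted p = 0.0084), a fit that called 1080 of all genes against 386. Klf16 was the 1 family member called higher in WT (0.79), and with upper-quartile scaling (0.11) and total counts (-0.11) it was not called.

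Atf3 is also a target of the integrated stress response, and 8 genes of that pathway were read beside it. Beside 33% of all genes called higher in each genotype, 6 of these 8 rose in both. They included the asparagine synthetase gene Asns (6.47 in KO and 6.31 in WT), Chac1 (5.70 and 5.57), the serine synthesis gene Psat1 (5.33 and 5.11) and the pseudokinase gene Trib3 (4.79 and 4.11), all larger than the change of any member but Atf3. Ddit3 (-0.58) and Ppp1r15a (-0.84) fell in WT (edgeR adjusted p = 0.011 and 0.00088), and 0 of the 8 fell in KO with edgeR, DESeq2 or limma-voom, where 6 had an unadjusted p below 0.05, all of them higher, beside 73.4% of all genes. Between genotypes 0 of the 8 were called at 48 hr by edgeR, DESeq2 or limma-voom (0 at an unadjusted p below 0.05, beside 14.4% of all genes).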

How the data were processed

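The deposited file holds 1 estimated count per transcript and library, which the authors deposited as whole numbers. Per the submitters' processing notes, they used bcl2fastq 2.20.0.422, Trimmomatic 0.36, Salmon 0.8.2 with the mm10 build and DESeq2 1.14.1. Per the labels' protocols, a SMART-Seq kit, which does not mark strand, gave the cDNA for paired-end sequencing. Salmon shares reads among similar transcripts. Transcript counts were summed per gene symbol, after spaces were trimmed from 344 names, genes were filtered with filterByExpr, and libraries were scaled by TMM (factors 0.723 to 1.42). One edgeR 4.0.16 model of the 4 groups (R 4.3.3) used all 12 libraries, with the robust quasi-likelihood test on 8 residual degrees of freedom. The Benjamini-Hochberg adjustment ran over the 19125 genes, with calls at an adjusted p below 0.05. The procedure was tested on simulated data.

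The members and gene lists were chosen with earlier results of these data known. All 10 members are named in each comparison, and of each other list up to 4 called genes with the lowest adjusted p in each direction, with Nab1, Nab2, Srf and Klf2. A gene that this rule names in the upstream list is not reported here. Positions are from GENCODE M21 on mm10. Alternatives were DESeq2 1.42.0, limma-voom (limma 3.58.1), other scalings and filters, no robust option, separate fits, and each library left out. Running them on the other lists was decided after seeing the data. The labels do not say whether replicates were separate animals. The p-values judge group differences against the spread between samples, which may be technical, so they may not extend to other mice. Figures were drawn with matplotlib 3.10.9.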

Additional observations from a re-analysis of the deposited data

How the results depend on the processing

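No paired analysis was possible because the replicate numbers 1 to 12 are not shared between groups. Depth limits Atf3 and Ier3 at 0 hr, where libraries held 19 to 140 counts. The fit on the libraries of 1 contrast was not run for the interaction, which uses all of them. Where a call was lost or gained, the cause was not tested. Leaving out a library changes both the number of samples and which libraries are compared.

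The count of members called higher at 48 hr (1) was 2 with DESeq2, 0 with limma-voom, 2 with KO 0 hr replicate 6 and KO 48 hr replicate 12 both left out, and 0 to 2 on leaving out 1 library. At 0 hr the count (0) was 1 with both left out (Dusp1, 0.95, adjusted p = 0.0029) and 0 to 1 on leaving out 1 library. With both left out, calls over all genes numbered 1351 at 48 hr and 674 at 0 hr, against 386 and 212. In the interaction it was 1 with DESeq2 and 0 to 1 on leaving out 1 library. Member counts over time stayed within 1.5 times of those reported, and the lower counts between genotypes stayed at 0.

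Some log2 fold changes changed sign on leaving out 1 library, and their ranges over the 12 such fits were as follows. Egr1 over time in KO ran from -0.341 to 0.034, and Nr4a1 at 48 hr from -0.111 to 0.281. At 0 hr Atf3 ran from -0.83 to 0.53, Egr2 from -0.134 to 0.467 and Nr4a1 from -0.247 to 0.626. In the interaction Atf3 ran from -1.274 to 0.086, Dusp1 from -0.604 to 0.185, Dusp2 from -0.029 to 0.19, Egr2 from -0.145 to 0.456 and Nr4a1 from -0.548 to 0.323. With limma-voom Atf3 was at -0.247 at 0 hr and Dusp1 at 0.043 in the interaction. With both libraries left out Egr2 was at -0.134 at 0 hr and Dusp2 at -0.013 in the interaction. None of these was called.

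Between genotypes at 0 hr the uncalled values near 0 of Nab1 ran from -0.05 to 0.033, of Nab2 from -0.019 to 0.148 and of Srf from -0.053 to 0.153 on leaving out 1 library. With total counts Nab2 was at -0.003 and Srf at -0.004, and with both libraries left out at -0.007 and -0.054.

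With total counts, which shift all genes over time, Map2k1 was at -0.214 in KO and -0.276 in WT, Map2k2 at -0.173 and -0.163, Srf at -0.45 and -0.316, and Klf16 and Zc3h12a at -0.106 and -0.161 in WT. With upper-quartile scaling Map2k1 was at -0.031 in KO and -0.063 in WT, and Srf at -0.269 and -0.107. Counts of other genes called were higher 1 to 12 in KO and 1 to 13 in WT for the upstream list (lower 5 to 14 and 4 to 13), and higher 7 to 13 in WT for the other immediate early genes. The feedback list had 0 to 4 higher and 3 to 5 lower in KO, and 2 to 4 and 2 to 5 in WT. The phosphatases had 4 to 7 lower in KO and 1 to 2 higher and 4 to 8 lower in WT. Heat-shock genes had 3 to 5 higher and stress-response genes 0 to 2 lower in KO. Between genotypes the other immediate early genes had 0 to 4 higher and 0 to 2 lower at 48 hr and 0 to 3 lower at 0 hr. Over all genes, calls numbered 136 to 1351 at 48 hr (386 in the fit reported), 75 to 674 at 0 hr (212) and 3 to 220 in the interaction (22), where 59.1% were higher. That share rested on single libraries: it was 0%, 25% and 25% when replicate 7, 8 or 9 of WT 48 hr was dropped, 33.3% and 28.6% when 10 or 11 of KO 48 hr was dropped, and 40%, 47.4% and 33.3% when 1, 2 or 3 of WT 0 hr was dropped. With total counts it was 75%. At 0 hr the share (61.3%) was 50.7% with total counts and 50.5% and 50.6% when WT replicate 1 or 3 was dropped, and at 48 hr (73.1%) it was 61.8% when WT replicate 9 was dropped.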
